A study of Mus musculus with 4 samples.

Results

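The Zscan4 gene cluster of mouse chromosome 7 was examined for acetylation of lysine 27 on histone H3 (H3K27ac), a mark of active promoters and enhancers, measured by chromatin immunoprecipitation followed by sequencing. Its members were the listed regions that overlap mm9 chromosome 7 between 11 and 12.2 Mb, the interval chosen to hold the tandem Zscan4 copies. The rule used position alone, but the interval was chosen with earlier results of these data known. Of the 23946 regions for which values were deposited, 8 met it. The cells were MC1-ZE7, a mouse embryonic stem (ES) cell line of the 129S6/SvEvTac background grown without feeders in serum and leukemia inhibitory factor (LIF), and all groups carried the fluorescent reporter Emerald. There were 2 libraries from sorted Emerald-negative cells, called Zscan4−, and 2 from the bright fraction of Emerald-positive cells, called Zscan4+. Both states came from the same line and medium, and no added agent is named. Nothing in the labels tells whether replicates were separate cultures, and p-values therefore reflect only the spread among these libraries, which may be technical. The linear models of limma share variance across all regions, so their p-values do not measure the spread at a single region alone.

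Zscan4 genes encode nuclear proteins with a SCAN domain and zinc fingers. They are known for a burst of expression in the 2-cell mouse embryo and for brief, sporadic expression in rare cells of ES cultures, where they have been linked to telomere lengthening and genome stability. In this line, as background, Emerald is driven by a Zscan4c promoter, so the sort itself selected cells by the activity of a promoter of this family. Reads from the reporter's own promoter copy, if its sequence was included, cannot be told apart from those of the cluster.

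The RefSeq gene table for GRCm38.p6, a later build than the mm9 used for the regions, lists 9 Zscan4 loci in a single stretch of chromosome 7. Other entries, mostly pseudogenes, lie between most of them. In order the Zscan4 loci are Zscan4a, Zscan4b, Zscan4c, Zscan4-ps1, Zscan4d, Zscan4e, Zscan4f, Zscan4-ps2 and Zscan4-ps3. Of these, 4 are annotated as protein coding (Zscan4b, Zscan4c, Zscan4d and Zscan4f) and 5 as pseudogenes. Vmn1r71 and Vmn1r72, which encode vomeronasal receptors, are the nearest protein-coding neighbours on the 2 sides. The deposited values pair no region with a gene, and coordinates were not carried between builds, so the 8 regions are named by number and position and none is assigned to a copy.

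How alike the copies are bears on what short reads can show here, so the 250 bases upstream of the annotated start are printed, 5′ to 3′, for the 4 coding copies. They come from the RefSeq promoter table of GRCm38.p6: Zscan4c at chr7:11005495-11005744 on the plus strand, Zscan4d at chr7:11166149-11166398 on the minus strand, Zscan4f at chr7:11397665-11397914 on the plus strand and Zscan4b at chr7:10905051-10905300 on the minus strand. These positions are not on the scale of the mm9 regions below. Capitals mark bases inside runs of at least 20 bases that all 4 copies share.
Zscan4c: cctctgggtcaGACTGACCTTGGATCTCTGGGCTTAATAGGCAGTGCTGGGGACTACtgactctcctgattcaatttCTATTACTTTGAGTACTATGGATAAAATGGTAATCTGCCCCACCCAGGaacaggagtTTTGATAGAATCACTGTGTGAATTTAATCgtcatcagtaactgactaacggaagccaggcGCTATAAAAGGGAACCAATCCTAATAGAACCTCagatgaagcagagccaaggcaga
Zscan4d: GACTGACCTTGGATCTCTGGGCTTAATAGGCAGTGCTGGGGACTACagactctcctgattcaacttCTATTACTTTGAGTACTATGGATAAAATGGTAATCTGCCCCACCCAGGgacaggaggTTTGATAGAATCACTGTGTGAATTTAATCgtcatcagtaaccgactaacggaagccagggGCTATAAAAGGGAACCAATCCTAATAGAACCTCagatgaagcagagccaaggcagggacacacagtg
Zscan4f: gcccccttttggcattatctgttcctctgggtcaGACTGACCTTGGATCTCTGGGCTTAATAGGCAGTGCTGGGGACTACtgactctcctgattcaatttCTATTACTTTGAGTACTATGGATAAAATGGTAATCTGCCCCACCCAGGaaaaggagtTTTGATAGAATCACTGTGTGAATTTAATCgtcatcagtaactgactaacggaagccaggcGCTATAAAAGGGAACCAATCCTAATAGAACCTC
Zscan4b: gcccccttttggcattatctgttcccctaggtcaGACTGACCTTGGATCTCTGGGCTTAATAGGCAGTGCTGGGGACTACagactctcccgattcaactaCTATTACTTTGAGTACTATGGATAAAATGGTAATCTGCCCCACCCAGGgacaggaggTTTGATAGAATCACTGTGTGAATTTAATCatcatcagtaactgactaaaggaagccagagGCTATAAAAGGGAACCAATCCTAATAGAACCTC

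The shared runs made up 156 of the 250 bases (62.4%) in each copy. Over their overlapping bases, Zscan4c and Zscan4f were 99.6% identical, with 1 mismatch in 227 bases, and the other 5 pairs were 94.7% to 97.2% identical. None of the alignments held an internal gap. The letters TATAAA, the core of a TATA box, occurred 1 time in each window of 300 bases (both strands searched), within a shared run, and in 13.62% of all 32851 RefSeq promoter windows. Its first base lay 31 bases upstream of the annotated start in Zscan4b and Zscan4f, 54 in Zscan4c and 65 in Zscan4d, so the annotated starts are not at the same place in the shared sequence. ATGCAAAT, the octamer letters, occurred in none of the 4 windows and in 1.74% of all windows. Of the stretches of 36 bases in each window of 300, 77.7% in Zscan4f, 72.1% in Zscan4c, 53.2% in Zscan4d and 47.2% in Zscan4b were also present in another of the 4 copies. With 50 bases the shares were 70.9%, 59.8%, 31.5% and 31.9% in the same order. No such stretch occurred in the promoter window of a gene outside the family. Neither the read length nor the treatment of reads that match several places is given in the sources used here, so the levels below may leave out or share out reads among copies, and levels of different regions may not be comparable as levels of different copies.

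At the 8 listed regions, which covered 8765 bp of the interval, Zscan4− cells had almost no H3K27ac and Zscan4+ cells carried the mark. No values were available for the rest of the interval. Values are RPKM (reads scaled to the length of the region and the depth of the library), and the reads behind them were worked out from the steps in the RPKM. Library depth ran from 9939130 reads (Zscan4− replicate 1) to 18284341 reads (Zscan4+ replicate 1). The 8 regions together held 13 and 13 reads in the Zscan4− libraries, against 844 and 850 in the Zscan4+ libraries. Scaled to library depth, these were 1.31 and 0.732 RPM (the RPKM scaling without the region length) against 46.2 and 53.4 RPM, or 1.02 ± 0.41 against 49.8 ± 5.1 RPM (SD, n = 2 per group). The groups did not overlap. An exact two-sided permutation test over 2 libraries against 2 gave p = 0.33, the smallest it allows. However, 7 of the 8 regions had at most 2 reads in each Zscan4− library. The larger of the group means was at least 1.95 RPKM at every listed region. Each of the 8 had a Zscan4− mean of at most 0.42 RPKM, so all 8 are listed only with a higher Zscan4+ level. The direction was therefore set by the list and the separation largely so, and the test decides nothing. The ratio of pooled reads, relative to library totals, was 52.8, with an exact 95% counting interval of 35.9 to 81. Intervals cover counting error only and leave out the spread between replicates. They may be too narrow even so, since copies made by PCR are not independent molecules. Fewer cells carrying the mark and less mark per cell cannot be told apart in such bulk libraries.

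**Figure D1:**
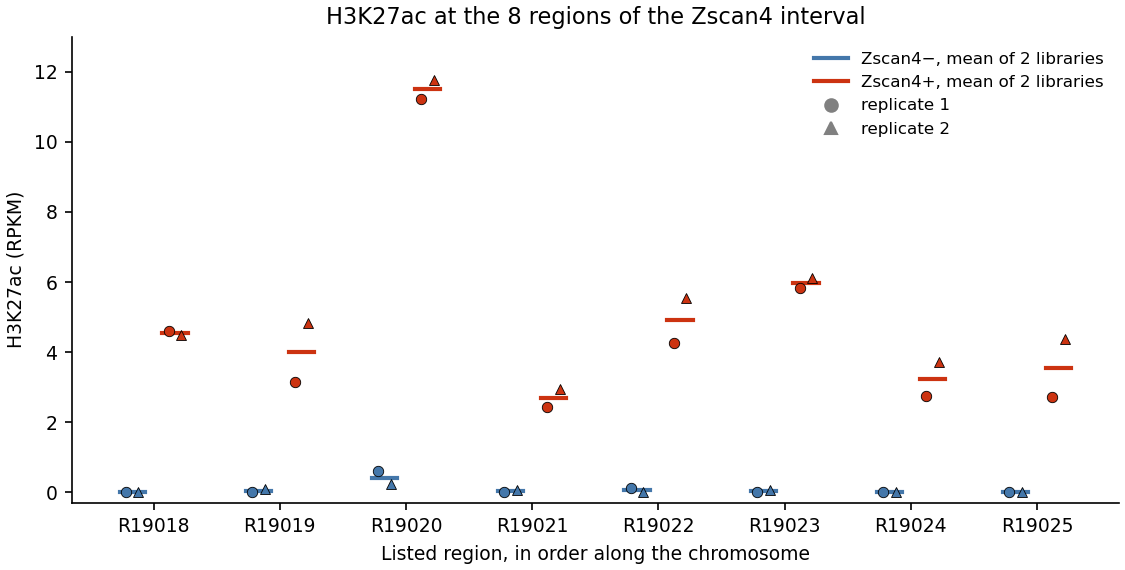
H3K27ac in RPKM (vertical axis) at each of the 8 regions in order along the chromosome, with a circle for replicate 1, a triangle for replicate 2 and a bar for the mean of the 2 libraries of a group. All Zscan4− values lie at or below 0.61 RPKM and all Zscan4+ values between 2.43 and 11.78 RPKM.

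R19020, from 11751082 to 11753061 on mm9 chromosome 7, was the highest and the widest region (1979 bp). Its Zscan4− libraries measured 0.61 RPKM (12 reads) in replicate 1 and 0.23 RPKM (8 reads) in replicate 2, and its Zscan4+ libraries 11.22 RPKM (406 reads) and 11.78 RPKM (371 reads). It was the one member with more than 2 reads in a Zscan4− library, and its Zscan4− values had overlapping 95% counting intervals, 0.315 to 1.07 and 0.0983 to 0.448 RPKM. Its log2 difference, on the log2(RPKM + 0.5) scale used throughout, was 3.74 ± 0.35 (standard error), at a limma adjusted p of 6.4e-23. Pooled reads gave a ratio of 31.5 (95% counting interval 20.2 to 51.8). R19020 held 76.9% of the members' reads in the Zscan4− libraries and 45.9% in the Zscan4+ libraries. Without it, the other 7 regions held 1 and 5 reads in the Zscan4− libraries and 438 and 479 in the Zscan4+ libraries, a pooled ratio of 124 (56.6 to 338).

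R19023, from 12062395 to 12063341, followed in level. Zscan4− replicate 1 gave 0 RPKM and replicate 2 gave 0.06 RPKM, which is 1 read, whereas the Zscan4+ libraries gave 5.84 and 6.11 RPKM. Its log2 difference was 3.61 ± 0.38 (standard error), with a limma adjusted p of 2.2e-18. The Zscan4+ replicates differed by less than their counting intervals, 4.76 to 7.1 and 4.92 to 7.49 RPKM. R19022, from 11982347 to 11983128, stood at 0.13 and 0 RPKM in Zscan4− cells against 4.27 and 5.55 RPKM in Zscan4+ cells, a log2 difference of 3.26 (limma adjusted p = 1.1e-14). At R19022 the Zscan4− value of replicate 1 rests on 1 read. R19019, from 11654892 to 11656156, went from 0 and 0.09 RPKM to 3.16 and 4.82 RPKM, a log2 difference of 3.02 (limma adjusted p = 3.3e-12). R19021, from 11895624 to 11897135, was the lowest member in Zscan4+ cells, with 0 and 0.07 RPKM against 2.43 and 2.95 RPKM. With 0.5 RPKM added, it also had the smallest log2 difference of the members, 2.57 (limma adjusted p = 1.4e-08).

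At 3 members no read was counted in either Zscan4− library. R19018, from 11590211 to 11590840, reached 4.61 RPKM in Zscan4+ replicate 1 and 4.49 RPKM in replicate 2, a log2 difference of 3.34 (limma adjusted p = 7.7e-15). R19024, from 12098964 to 12099959, reached 2.75 and 3.72 RPKM, with a log2 difference of 2.89 (limma adjusted p = 9.7e-11). R19025, from 12194036 to 12194696, reached 2.73 and 4.38 RPKM, with a log2 difference of 2.99 (limma adjusted p = 1.5e-11). A count of 0 allows up to 3 reads in a library. At R19018 that is 0.48 and 0.269 RPKM in Zscan4− replicates 1 and 2, at R19024 0.303 and 0.17 RPKM, and at R19025 0.457 and 0.256 RPKM. Against a floor of 3 reads over the group, R19018 was at least 26.5-fold higher in Zscan4+ cells, R19024 at least 29.4-fold and R19025 at least 21.3-fold. Of all 23946 regions, 16 (0.0668%) had 0 reads in both Zscan4− libraries, and 3 of these 16 lay in the interval. At most 2 reads in each Zscan4− library were found at 137 regions (0.572%), 7 of them in the interval.

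All 8 members passed the limma test (adjusted p not above 0.05) as higher in Zscan4+ cells, against 8.01% of all regions, and 0 were lower, against 6.82% of all regions. Little can be read from this contrast, because the larger of the group means was at least 1.95 RPKM at every listed region. All 8 members lay far under that in Zscan4− cells and are therefore in the list only with a higher Zscan4+ level. The shares over all regions also depend on the processing. Higher calls (1917) ranged from 1101 to 3119 when a library was left out and were 3375 with median centring. Lower calls (1632) ranged from 59 to 7547 when a library was left out, the extremes being without Zscan4− replicate 2 and without Zscan4+ replicate 2, and were 3622 with median centring and 2603 with the replicate number as a block. No member was lower at an unadjusted p under 0.05, nor by limma's voom on the reads. The fitted difference was at least 4-fold at all 8, against 3.86% of all regions. Both Zscan4+ libraries lay above both Zscan4− libraries at all 8, against 18.6% of all regions. The median log2 difference was 3.14, with 2.9 in replicate 1 and 3.3 in replicate 2, against -0.17 over all regions (-0.37 in replicate 1 and 0.05 in replicate 2). Ranked by log2 difference among all 23946 regions, the members lay between place 26 (R19020) and place 400 (R19021). The size of these differences depends on the pseudocount, since most Zscan4− values are near 0: the members' median was 5.04 with 0.1 RPKM added and 2.35 with 1 RPKM added. With voom on the reads it was 5.91. The order of the members changed as well. With voom R19020 had the smallest log2 difference of the members, 4.96, and R19021 had 5.59.

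**Figure D2:**
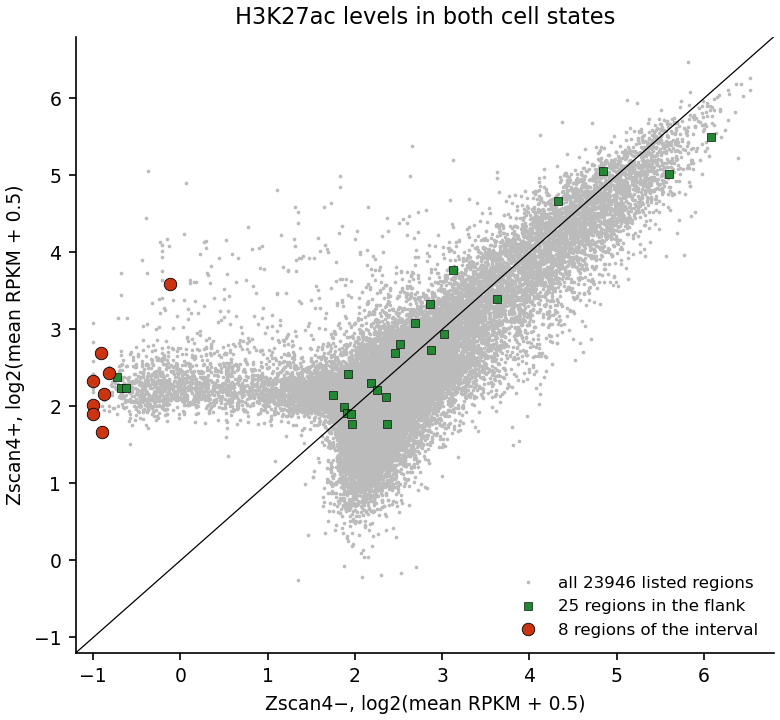
Mean H3K27ac of the 2 Zscan4− libraries (horizontal axis) against that of the 2 Zscan4+ libraries (vertical axis), both as log2(mean RPKM + 0.5), for all 23946 listed regions (grey), the 25 flank regions (green squares) and the 8 regions of the interval (red circles); the line marks equal levels. The red circles lie at the left edge, 7 of them with a Zscan4− mean of at most 0.065 RPKM, at ordinary Zscan4+ levels.

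In Zscan4+ cells the members had levels usual for the list. The median of their Zscan4+ means was 4.27 RPKM, against 4.59 RPKM over all regions and 4.49 RPKM over the 925 regions called at least 4-fold higher, and 3 of 8 members lay above the median of all regions. R19020 stood at the 83.5th percentile of all regions in Zscan4+ level and R19021 at the 13.5th. Their median width was 970.5 bp, against 1111 bp over all regions and 973 bp over the 925. Zscan4+ replicate 2 exceeded replicate 1 at 7 of 8 members, with R19018 the exception, and at 92.7% of all regions. The median ratio of replicate 2 to replicate 1 was 1.26 at the members and 1.48 over all regions.

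The order of the members by level was similar in the Zscan4+ libraries. R19020 was first, R19023 the second and R19021 the last in both. The counting interval of R19020, 10.2 to 12.4 RPKM in replicate 1 and 10.6 to 13 RPKM in replicate 2, lay above those of all other members in both libraries. R19018, R19022 and R19019 changed places between the libraries, at 4.61, 4.27 and 3.16 RPKM in replicate 1 against 4.49, 5.55 and 4.82 RPKM in replicate 2. R19024 and R19025 did not differ beyond their counting intervals, 2.04 to 3.62 and 1.88 to 3.84 RPKM in replicate 1 and 2.84 to 4.8 and 3.21 to 5.84 RPKM in replicate 2. Across the 8 regions, levels in the Zscan4+ replicates had a Spearman rho of 0.9 and a Pearson r of 0.95 on the log2 scale. These values describe 8 regions that share libraries and may share sequence, and R19020 lies far from the rest.

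The members were spread thinly over 604.5 kb, with no other listed region between them. Gaps between neighbouring members ran from 35.6 kb, between R19023 and R19024, to 142.6 kb, between R19020 and R19021, against a median gap of 24.6 kb over the whole list. Together the 8 regions covered 8765 bp. On the side of lower coordinates the nearest listed region, R19017 from 7251419 to 7253370, ended 4.34 Mb before R19018 began, which was the 7th longest of 23925 gaps between listed regions. The flank of 2 Mb on that side therefore held 0 listed regions. On the other side the last member, R19025, ended 5.3 kb inside the end of the interval, and the next listed region, R19026 from 12398634 to 12400017, began 203.9 kb further on.

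Neither of the listed regions next to the interval was called different between the states. R19017 measured 17.74 and 14.37 RPKM in Zscan4− cells against 11.72 and 18.93 RPKM in Zscan4+ cells, a log2 difference of -0.1 (limma adjusted p = 0.92). R19026 measured 3.06 and 3.7 RPKM against 3.04 and 3.41 RPKM, a log2 difference of -0.06 (limma adjusted p = 0.95). The groups overlapped at both. The sign of so small a difference changed with the scaling of the libraries.

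The flank of 2 Mb on the side of higher coordinates held 25 regions. Of these, 3 were higher in Zscan4+ cells by limma, all at least 4-fold, against 8.01% higher and 3.86% at least 4-fold higher over all regions. None was lower by limma, against 6.82% of all regions, and none by voom or at an unadjusted p under 0.05. The 3 higher calls became 5 with median centring or quantile normalization, 7 without Zscan4+ replicate 1, and 10 with quantile normalization under a replicate block. Lower calls became 4 without Zscan4+ replicate 2. R19027, from 12500978 to 12502017, stood at 0.19 and 0.11 RPKM in Zscan4− cells against 3.58 and 4.9 RPKM in Zscan4+ cells, a log2 difference of 2.85 (limma adjusted p = 1.7e-11). R19047, from 13754750 to 13756103, went from 0 and 0.21 RPKM to 3.52 and 5.94 RPKM, a log2 difference of 3.09 (limma adjusted p = 2.7e-13). R19048, from 13798524 to 13799808, went from 0.16 and 0.09 RPKM to 4.05 and 4.4 RPKM, a log2 difference of 2.92 (limma adjusted p = 6.9e-12). These 3 went from near 0 to about the levels of the members. Their Zscan4− means, 0.105 to 0.15 RPKM, lay under the 1.95 RPKM that the larger group mean reached at every listed region. They too are therefore listed only with a higher Zscan4+ level, and their direction was set by the list. Both Zscan4+ libraries lay above both Zscan4− libraries at 6 of the 25, these 3 among them, against 18.6% of all regions. Both lay below at 3 of the 25, against 8409 of all 23946 regions. The other 22 flank regions had log2 differences between -0.62 and 0.6, and none passed the test. Over all 25 flank regions the summed level was 163 and 170 RPM in the Zscan4− libraries against 143 and 228 RPM in the Zscan4+ libraries, so the groups overlapped. The pooled reads of the 25, 4647 against 6248, gave a ratio of 1.09 (95% counting interval 1.05 to 1.13, which leaves out the spread between replicates). Without the 3 called regions, the other 22 held 4634 against 5699 reads, a ratio of 0.996 (0.958 to 1.04).

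**Figure D3:**
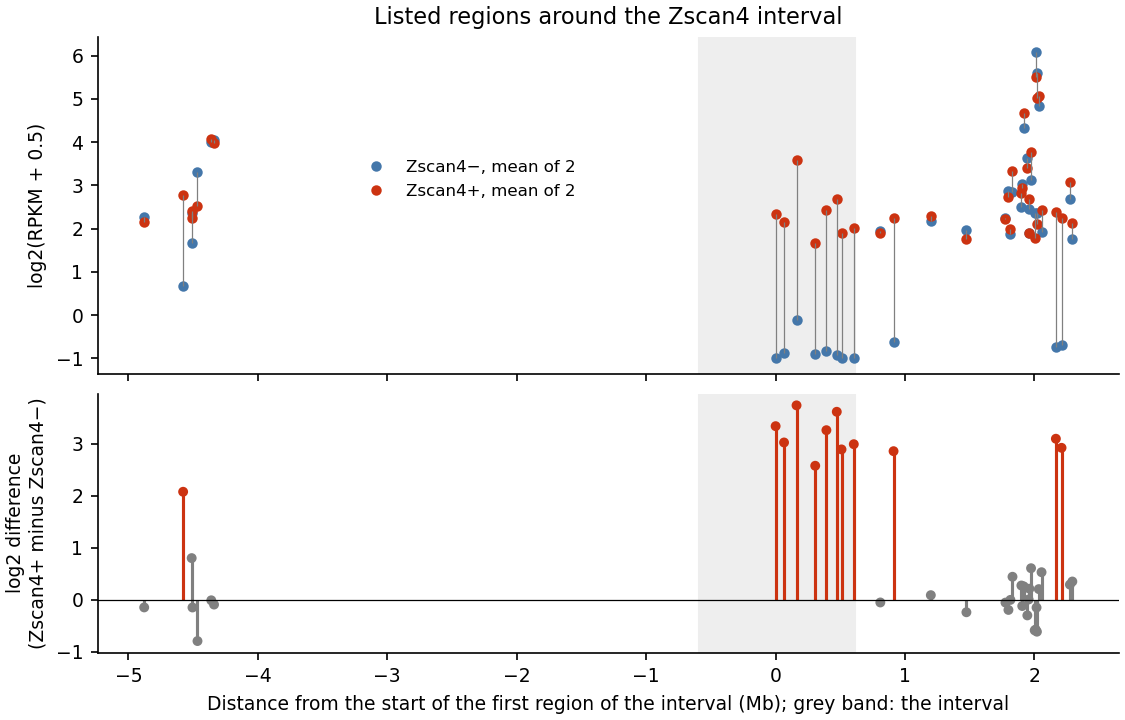
Listed regions around the interval, by distance in Mb from the start of R19018: the upper panel gives the mean of each group as log2(RPKM + 0.5), and the lower panel the log2 difference, red where limma called the region higher and grey where it made no call. The 8 regions in the grey band are all red, with differences of 2.57 to 3.74, next to an empty stretch of 4.34 Mb on the left and mostly grey regions on the right.

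The interval was also set against this flank within each library. The median log2(RPKM + 0.5) of the members minus that of the 25 flank regions was -3.4 and -3.07 in Zscan4− replicates 1 and 2, and -0.15 and -0.32 in Zscan4+ replicates 1 and 2. The means were -3.24 ± 0.23 and -0.23 ± 0.12 (SD, n = 2), a difference of 3.0 on the log2 scale. The members' medians in the Zscan4− libraries, -1.0 and -0.92, sit at or near the level that 0.5 RPKM alone gives, so the size depends on the pseudocount. It was 5.05 with 0.1 RPKM added, 2.19 with 1 RPKM added, 2.3 with quantile normalization and 6.07 with voom. Both Zscan4+ values lay above both Zscan4− values, and the exact two-sided permutation test gave p = 0.33, the smallest it allows. Because all 8 members are listed only with a higher Zscan4+ level, this separation was largely set by the list, and the test decides nothing.

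Taken along the genome, the interval was the longest unbroken run of listed regions that were called at least 4-fold higher. It held 8 neighbouring regions, the next longest runs held 4, and 725 of the runs were isolated regions. Both runs of 4 were also on chromosome 7, from 57373377 to 58418937 and from 66512515 to 68888948, and another 12 runs held 3 regions. With 1 RPKM added in place of 0.5, and with quantile normalization, R19021 alone missed the 4-fold limit, at log2 differences of 1.83 and 1.99. The longest run at the interval was then 4, as elsewhere. Where the minimum was 2 RPKM, the run was 5 because 5 members were tested. Counting regions called higher at any size, the interval held a run of 8 under each setting but the minimum of 2 RPKM, where it was 5, and the longest run elsewhere was 5, with a range of 4 to 11 over the other settings. The 11 came when libraries were both blocked by replicate and quantile normalized. The list largely set the run at the interval, since all 8 members are listed only with a higher Zscan4+ level. Regions of similar Zscan4− level without that rise are not listed, so none could break it. Reads may also be shared out among copies. Runs were counted after results had been seen and carry no test.

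**Figure D4:**
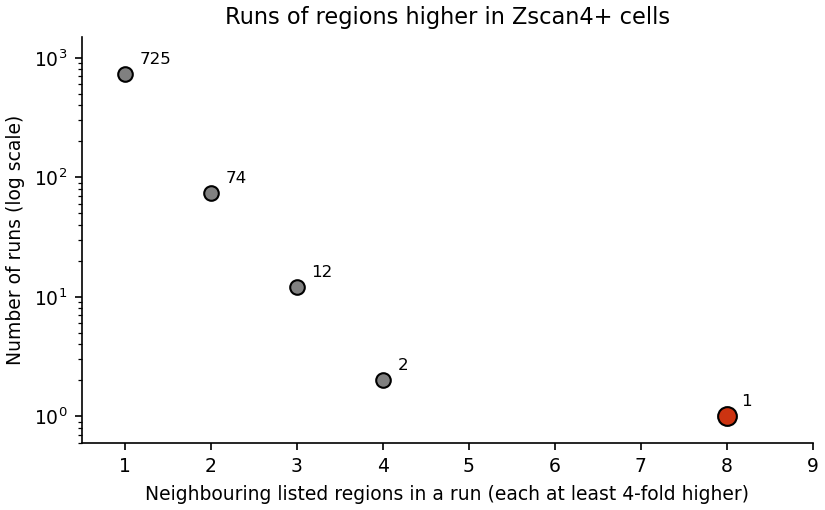
Number of runs (vertical axis, log scale) by the number of neighbouring listed regions in the run (horizontal axis), where each region of a run was called at least 4-fold higher in Zscan4+ cells. The Zscan4 interval, in red, is the 1 run of 8, and 725 runs hold 1 region.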

How the data were processed

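H3K27ac was measured by ChIP-seq in 4 libraries, 2 Zscan4− and 2 Zscan4+, with groups taken from the sample descriptions. The authors deposited RPKM over 1 shared list of 23946 regions with identical coordinates in all files, rounded to 2 decimals, per the file headers. Bowtie and HOMER on mm9 were used, per the submitters' processing notes. Settings, read length and the calling of regions: not given in the sources used here. Per the labels' protocols, replicate 2 was amplified before size selection and taken at 200 to 500 bp, and replicate 1 at 200 to 300 bp.

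RPKM times region width fell on whole multiples of 1 step per library, taken as 1 read: of values above 0 and below 50 reads, between 97.13% and 99.97% were within 0.1 reads of a whole number, depending on the library. Reads in listed regions were 12.97% to 19.14% of the totals. Groups were compared with limma 3.58.1 (R 4.3.3) on log2(RPKM + 0.5), with a trend in variance, keeping regions whose mean reached 0.5 RPKM, two-sided, adjusted by Benjamini-Hochberg over all regions and with calls at an adjusted p not above 0.05. The fit was tested on simulated data. Counting intervals and permutation tests were exact (scipy 1.17.1, Python 3.11.15), and promoters were aligned with Biopython 1.88. A chi-square test of the reads between replicates gave, per degree of freedom, 1.92 in Zscan4− and 2.94 in Zscan4+ cells, which is more than sampling noise. Replicate numbers pair the libraries, since replicate 2 had its own preparation, and the replicate differences of the groups correlated at 0.35 across regions. Named regions are all members, the listed region next to the interval on each side and flank regions called at least 4-fold different. The members, the interval and the tests were chosen with earlier results of these data known. The 2-cell gene list and the search for a region near each Zscan4 copy were not applied, because regions carry no gene names and no mm9 annotation was used here. Alternatives were a replicate block, other pseudocounts, minimums, scalings and variance models, voom, a threshold of 0.10, other interval and flank limits, and leaving out each library.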

Additional observations from a re-analysis of the deposited data

How the results depend on the processing

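Under 15 other settings of the fit the members gave 117 values, of which 117 kept their direction and stayed called and 0 reversed, with log2 differences of 1.83 to 6.44 and a largest adjusted p of 0.011. Of these settings, leaving out the minimum gave the same fit, and the threshold of 0.10 reused the main fit, so neither could remove a call. Because all 8 members are listed only with a higher Zscan4+ level, a kept direction says little. The members' median (3.14) was 5.04 and 2.35 with pseudocounts of 0.1 and 1, 5.91 with voom, and 2.55 with quantile normalization whether blocked or not. The difference of the members from the flank (3.0) was 5.05 and 2.19 with pseudocounts of 0.1 and 1, 6.07 with voom, and 2.3 with quantile normalization whether blocked or not. The summed difference of 48.8 RPM was 26.8 RPM without R19020, an alternative chosen after seeing the data. A minimum of 2 RPKM left 5 members to test, all called. Higher calls in the flank (3) were 5 with median centring, 5 when quantile normalized, 10 when this was also blocked, 3 to 7 when a library was left out (7 without Zscan4+ replicate 1), and 1 and 5 with flanks of 1 and 5 Mb. Lower calls there (0) were 1 when blocked and quantile normalized, 1 with 5 Mb, and 0 to 4 when a library was left out (4 without Zscan4+ replicate 2). Over all regions, higher calls (1917) were 3375 with median centring, 3307 with quantile normalization, 5168 with the block added to it, and 1101 to 3119 when a library was left out. Lower calls (1632) were 2603 with the block, 3622 with median centring, 3278 with quantile normalization, 5529 with the block added to it, 2502 at a threshold of 0.10, and 59 to 7547 when a library was left out. The replicate block changed no call among the members or the flank. Where a library is left out, the lone remaining one is taken to vary as the intact group does. R19017 (-0.1) became 0.0 with median centring and 0.06 when quantile normalized, blocked or not, and lay between -0.43 and 0.24 when a library was left out. R19026 (-0.06) became 0.04 with median centring and 0.07 when quantile normalized, blocked or not, and lay between -0.17 and 0.06 when a library was left out. The pseudocount acts most on values near 0 by construction, whereas quantile normalization acts on values at every level. The cause was not tested for other settings. Depth limits the members' Zscan4− levels, which rest on 26 reads in all.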

Other observations

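Runs of 3 neighbouring regions called at least 4-fold higher lay on chromosomes 1, 3, 4, 5, 6, 9, 11, 12 and 15. On chromosome 6 the 3 regions from 121599297 to 122206294 had at most 0.28 RPKM in any Zscan4− library and 3.02 to 7.86 RPKM in the Zscan4+ libraries, with log2 differences of 2.31 to 3.27. On chromosome 3 the 3 regions from 93594169 to 93623860, a span of 29.7 kb, had at most 0.52 RPKM in the Zscan4− libraries and reached 22.79 RPKM in a Zscan4+ library. The run of 4 on chromosome 7 from 66512515 to 68888948 had 3.94 to 13.8 RPKM in the Zscan4+ libraries and at most 0.53 RPKM in the Zscan4− libraries. In the runs whose values are given, all Zscan4− values lay under 1.95 RPKM. Those regions too are listed only with a higher Zscan4+ level. These runs were picked after their values were seen, and no test was made of them.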
